A study of Homo sapiens with 2 samples.

Results

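The genes described here are 10 negative regulators of MAP kinase signalling: 6 dual-specificity phosphatase genes (DUSP1, DUSP4, DUSP5, DUSP6, DUSP10 and DUSP14), 2 Sprouty genes (SPRY2 and SPRY4) and 2 SPRED genes (SPRED1 and SPRED2). They were chosen by name, for their known place in the pathway, with earlier results of these data known. The table held 12353 genes, and 9 of the 10 had a value. Global run-on sequencing (GRO-seq), which reads nascent RNA, was applied to BJ cells, a line of normal human skin fibroblasts, in 1 group of 2 biological replicate libraries. In this assay polymerases already engaged on a gene are allowed to extend their transcripts in isolated nuclei with a brominated nucleotide, here for 5 min at 30 °C, and the labelled RNA is captured and sequenced. The cells received no treatment and grew in medium with 10% heat-inactivated fetal calf serum. There was no starved, stimulated or inhibitor-treated group, so levels and their order could be described, but not a response.

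Growth factors acting on receptor tyrosine kinases switch on RAS, which passes the signal through the RAF and MEK kinases to ERK. Active ERK raises the transcription of several genes whose products then weaken the same signal. The MAP kinase phosphatases of the DUSP family remove phosphate from both the threonine and the tyrosine of the activation loop of ERK, JNK or p38. Sprouty proteins act further upstream, between the receptor and RAF, and SPRED proteins bring the RAS-inactivating protein neurofibromin to the membrane. In growing fibroblasts several of these genes are known as part of the transcriptional answer to serum.

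Values are FPKM (fragments per kilobase, scaled to library size), a level per length, and the sources used here do not give the length. They are given as library a, library b and the mean ± SD (n = 2). The median gene stood at 11.8 FPKM (library a) and 11.7 FPKM (library b). Ranks, medians and shares of all genes are among the genes with a value. A gene without a value had no row under its current symbol, which does not show that it was silent. The number of reads behind a value is unknown, because the table holds no counts. A p-value was not computed, since with 2 replicates of 1 group the smallest p of an exact sign-flip test is 0.5. All 10 listed fibroblast genes had values, from 7.34 to 649 FPKM, which goes with the fibroblast label. Of 4 epithelial genes only CDH1 had one (1.49), and none of the 3 endothelial or 3 leukocyte genes did. Because a missing row does not show silence, those absences are not evidence for the label.

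Start regions of 4 genes are shown first, because they belong to genes at different points of the order of levels: DUSP1 is the highest, DUSP6 and SPRY2 follow it, and SPRED1 lies near the median gene. Each is the 150 bases before the RefSeq transcription start (build GRCh38.p14), written 5′ to 3′ on the gene's strand. They lie at chr5:172771196-172771345 (minus strand), chr12:89352502-89352651 (minus), chr13:80341127-80341276 (minus, the outermost of 3 starts) and chr15:38252686-38252835 (plus). Capitals mark the letters of the searched motifs, in either orientation.
DUSP1: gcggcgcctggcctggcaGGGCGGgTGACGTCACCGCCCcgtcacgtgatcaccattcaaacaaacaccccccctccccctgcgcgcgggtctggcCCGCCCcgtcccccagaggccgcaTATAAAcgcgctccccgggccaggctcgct
DUSP6: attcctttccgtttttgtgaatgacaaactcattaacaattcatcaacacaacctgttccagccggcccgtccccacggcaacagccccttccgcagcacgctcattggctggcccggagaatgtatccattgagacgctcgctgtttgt
SPRY2: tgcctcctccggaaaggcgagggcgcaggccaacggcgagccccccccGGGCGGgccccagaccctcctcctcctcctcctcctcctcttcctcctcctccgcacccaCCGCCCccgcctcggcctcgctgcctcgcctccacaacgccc
SPRED1: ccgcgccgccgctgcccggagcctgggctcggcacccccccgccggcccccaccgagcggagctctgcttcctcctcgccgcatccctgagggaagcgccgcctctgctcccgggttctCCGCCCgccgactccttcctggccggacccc

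Motifs were searched on both strands, in windows from 250 bases before to 50 bases after each start. They were TGACGTCA (the cyclic AMP response element, CRE), TGANTCA (a pattern that includes the AP-1 site) and the CArG box of serum response factor. The others were CCGGAAG (a core of ETS factor sites), TATAAA and GGGCGG (the GC box). Entries were found for 8 of the 10 genes, and DUSP4 and DUSP5 had none. The DUSP1 window held a CRE at position -125 (the first base of the motif, counted from the start), a TATAAA at -30 and 4 GC boxes. In the printed sequence a GC box lies just before this CRE and another, in the opposite orientation, begins where it ends. TGACGTCA occurred in 1.85% of the 35116 windows in the RefSeq table and TATAAA in 11.5%. The DUSP6 window held none of the 6 motifs, and the GC box, present in 45.0% of all windows, was the only one found for SPRY2, SPRY4, SPRED1, DUSP10 and DUSP14. Of the 2 starts listed for SPRED2, the inner one had a TATAAA at -31 and 2 TGANTCA matches, at -6 and 34. TGANTCA occurred in 7.71% of windows. No CArG box (1.29% of windows) and no CCGGAAG (10.3%) lay in any window of these 8 genes. Among the 9936 measured genes with a window the shares of genes with a motif were 3.87% for TGACGTCA, 7.17% for TGANTCA, 1.61% for the CArG box, 22.5% for CCGGAAG, 8.53% for TATAAA and 76.5% for GGGCGG. Which start was used in BJ cells was not measured. Across the 9936 measured genes with a window, the median level was 13.4 FPKM for the 385 genes with TGACGTCA and 11.8 for the rest, and 11.4 against 11.9 for the 848 genes with TATAAA.

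**Figure D1:**
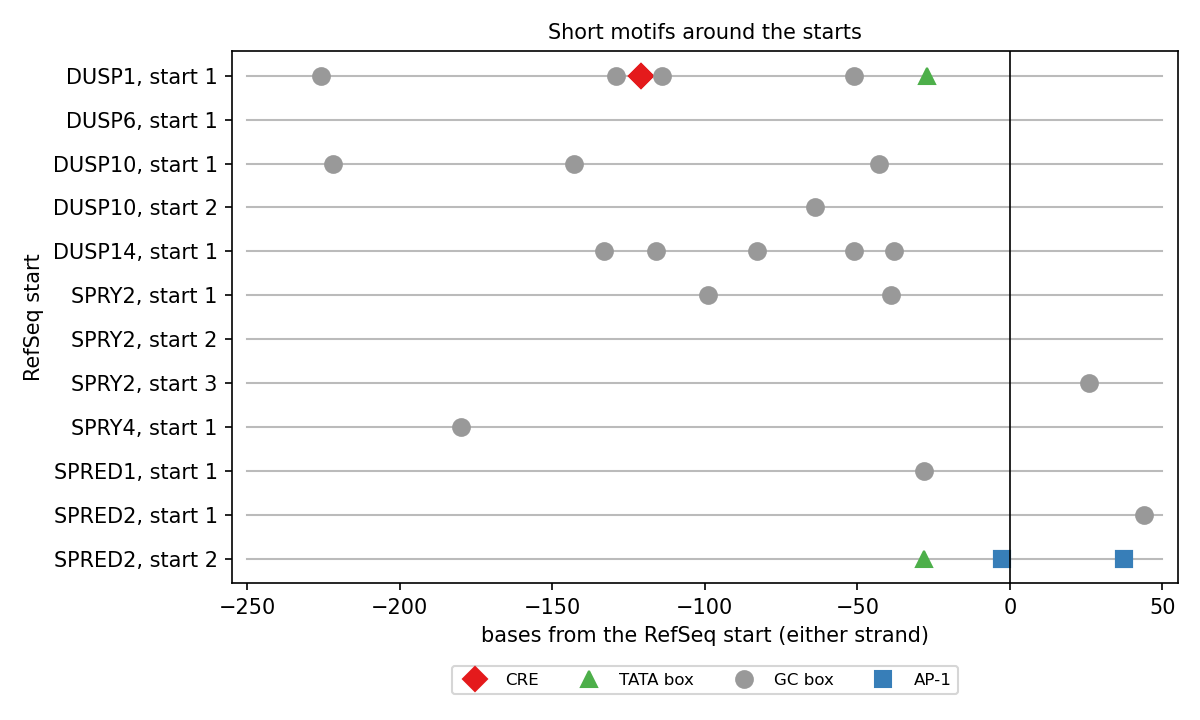
Positions of 4 motif kinds (CRE, TATA box, GC box and TGANTCA, marked AP-1) relative to each RefSeq start. Bases from the start are on the horizontal axis, with 1 line for each start of the 8 genes with an entry. The DUSP1 line holds the single CRE, and DUSP6 and the second SPRY2 start hold no mark.

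The 9 measured genes covered a wide range, with DUSP1 far above the rest and SPRED2 lowest. Their median was 39.4 FPKM, 3.37 times that of the median gene, and 8 of the 9 lay above the median gene, against 50% of all genes by definition. Measured relatives of the same classes outside the 10, atypical DUSP genes apart, were all below this median. They were DUSP7 (19.9 FPKM), SPRED3 (14.4), DUSP2 (6.89) and DUSP16 (6.64), so the median depends on which relatives are listed. SPRED1 lay above the median gene by a small margin, on the mean and in library a but not in library b. In the top 10% of genes, above 40.3 FPKM, were 4 of the 9, namely DUSP1, DUSP6, SPRY2 and SPRY4. DUSP5 was just below that boundary on the mean and inside it in library b. DUSP1 alone made up 62.9% of the summed FPKM of the 9 genes in library a and 65.4% in library b.

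DUSP1 encodes a nuclear phosphatase that acts on p38, JNK and ERK and is a classic immediate early gene. It stood at 593 and 680 FPKM in libraries a and b (637 ± 61.8), at rank 32 of 12353 genes. Its level was 54.4 times that of the median gene, and both libraries put it above every other gene of the pathway lists. The next gene, DUSP6, was lower by a factor of 6.30 and 6.29 in libraries a and b.

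The other nuclear inducible phosphatase genes were transcribed much less. DUSP5, whose product is selective for ERK, had 38.2 and 40.7 FPKM in libraries a and b (39.4 ± 1.81). DUSP4, whose nuclear product acts on ERK and JNK, had 16.8 and 16.5 (16.6 ± 0.233). The values of these genes do not overlap, and DUSP5 exceeded DUSP4 by 2.36-fold (2.26 in library a, 2.46 in library b). DUSP2, a phosphatase gene best known in immune cells and not one of the 10, had 7.08 and 6.70 (6.89 ± 0.269) and lay above 28.1% of all genes. DUSP1 was 16.1 times as high as DUSP5, 37.9 times as high as DUSP4 and 90.9 times as high as DUSP2, each as the mean of the log2 ratios.

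Among the phosphatases that act on ERK in the cytoplasm, DUSP6 was the main nascent transcript. It stood at 94.1 and 108 FPKM in libraries a and b (101 ± 9.86), at rank 296. DUSP7, its close relative, had 18.3 and 21.6 (19.9 ± 2.31), and DUSP9, the third gene of this kind, had no value. DUSP6 exceeded DUSP7 by 5.12-fold and 4.99-fold in libraries a and b. RefSeq lists a read-through gene, POC1B-DUSP6, over DUSP6. POC1B itself, looked up after the values were seen, had 2.59 and 2.42 FPKM, and DUSP6 was 38.8 times as high. What part read-through had in the DUSP6 level was not tested.

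The levels did not follow the compartments. The median of the 4 nuclear inducible genes lay 0.80 log2 units below that of DUSP6 and DUSP7, with differences of -0.71 and -0.90 in libraries a and b (SD 0.131). DUSP1 lay above both cytoplasmic genes, DUSP5 between them, and DUSP4 and DUSP2 below both. The difference was -1.42 without DUSP1 and -1.35 for DUSP1, DUSP4 and DUSP5 against DUSP6 alone. With class means in place of medians it was -0.12 (SD 0.121), within the spread between the libraries. The size of the difference thus changed with the genes put in each class and with how a class was summarised. The range within the nuclear class, 6.89 to 637 FPKM, was wider than the distance between the classes.

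DUSP10, which acts on p38 and JNK rather than ERK, was transcribed at the level of DUSP5. It had 38.5 and 37.0 FPKM in libraries a and b (37.7 ± 1.07). The order of these genes changed between libraries, with DUSP10 above DUSP5 in library a and below it in library b, so they could not be ranked. DUSP16, its relative with the same substrates, had 6.62 and 6.65 (6.64 ± 0.0212), and DUSP10 exceeded it 5.61-fold. DUSP8, the third of this class, had no value. The genes of the substrates were lower than DUSP10: MAPK14, which encodes the main p38 kinase, had 17.4 ± 0.431 FPKM, and the JNK genes MAPK8 and MAPK9 had 13.9 ± 1.73 and 3.54 ± 0.0778.

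DUSP14, an atypical phosphatase gene whose product lacks the kinase-binding domain of the others, had no row under its current identifier. Its level is therefore not analysed here. Of 14 other atypical DUSP genes, 8 had values, with a median of 15.3 FPKM. They were led by DUSP12 (54.2 ± 1.61), DUSP3 (34.0 ± 0.778), which encodes a small phosphatase that can act on ERK, and DUSP28 (31.4 ± 0.0283), and the lowest was DUSP18 (4.21 ± 0.156).

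**Figure D2:**
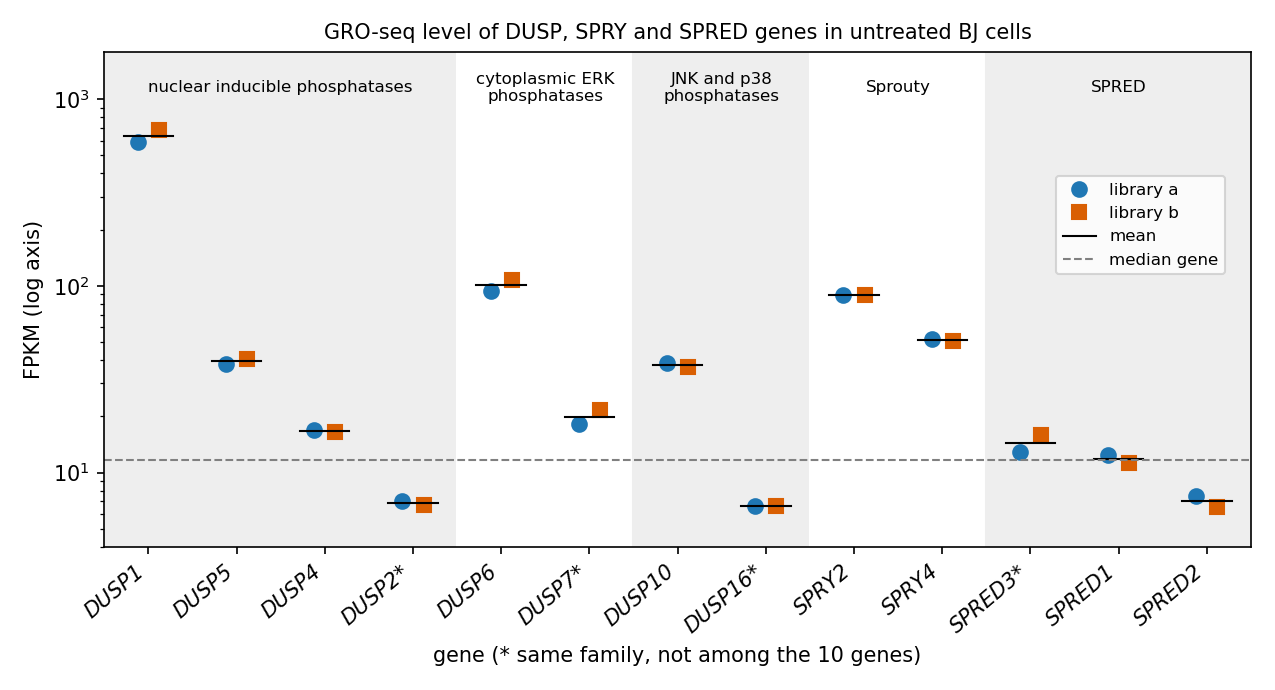
FPKM on a log axis for the 9 measured genes and 4 relatives (starred), grouped by class, with a circle for library a, a square for library b, a line at the mean and a dashed line at the median gene. DUSP1 (593 and 680) stands above all others, and the nuclear class spans from there to DUSP2 (7.08 and 6.70).

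Both Sprouty genes with a value were in the top 10%. SPRY2, whose product is a widely expressed inhibitor of growth factor signalling, had 89.9 and 89.5 FPKM in libraries a and b (89.7 ± 0.304), at rank 339. SPRY4 had 51.8 and 50.5 (51.1 ± 0.933), at rank 826. SPRY2 exceeded SPRY4 1.73-fold and 1.77-fold in libraries a and b. SPRY1 and SPRY3 had no value. The long noncoding gene SPRY4-IT1 overlaps SPRY4 in RefSeq, and no source used here says whether strand was used in counting, so reads of the 2 genes may not be separated.

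The SPRED genes lay near or below the median gene. SPRED1, the gene mutated in Legius syndrome, had 12.4 and 11.3 FPKM in libraries a and b (11.9 ± 0.820). It was above the median gene in library a and below it in library b. SPRED2 had 7.46 and 6.56 (7.01 ± 0.636) and was below the median gene in both. SPRED1 exceeded SPRED2 1.66-fold and 1.71-fold in the 2 libraries. SPRED3, not one of the 10, had 12.9 and 15.9 (14.4 ± 2.09). It was above SPRED1 by 1.04-fold and 1.40-fold in libraries a and b, a log2 difference of 0.27 ± 0.308, so SPRED1 and SPRED3 did not differ beyond their spread.

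The 2 measured Sprouty genes, of 4 listed, thus stood above the 3 SPRED genes. Their medians differed by 2.51 log2 units (2.45 in library a, 2.57 in library b), and the lower of the Sprouty genes, SPRY4, was above the highest SPRED value in both libraries. SPRY2 exceeded SPRED1 7.52-fold and SPRED2 12.7-fold. NF1, the gene of neurofibromin, the partner that SPRED proteins recruit, was also low, at 8.15 ± 0.834 FPKM, and SPRED1 exceeded it 1.45-fold. RASA1, which encodes another RAS-inactivating protein, had 28.7 ± 1.34.

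In order of level the 9 genes were DUSP1, DUSP6, SPRY2, SPRY4, DUSP5, DUSP10, DUSP4, SPRED1 and SPRED2. Neighbours were taken to differ where the mean of their log2 ratio exceeded 2 SD over the libraries. This held for 6 of the 8 neighbouring pairs. The exceptions were DUSP6 with SPRY2 (log2 ratio 0.07 and 0.27 in libraries a and b) and DUSP5 with DUSP10. The values of DUSP6 and SPRY2 nevertheless did not overlap. The pairs were formed by sorting on the same values, and the share among all gene pairs was not computed. The count is therefore a description. The smallest step that passed was SPRY4 over DUSP5, 1.36-fold and 1.24-fold in libraries a and b.

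The measured genes of the named set had a higher median (39.4 FPKM) than the RAS-ERK cascade list. All 23 genes of the RAS-ERK cascade list were measured, with a median of 12.2 FPKM, 12 of them above the median gene and 3 in the top 10%. MAPK3, which encodes an ERK kinase, had 9.995 ± 1.41, and the MEK genes MAP2K1 and MAP2K2 had 12.3 ± 0.969 and 12.2 ± 0.354. DUSP6 exceeded MAPK3 10.0-fold. HRAS (266 ± 2.69) was the one cascade gene above DUSP6, and PEA15, an ERK-binding protein gene (67.7 ± 1.74), and SHC1, an adaptor gene (66.3 ± 0.346), came next. The lowest was RPS6KA1, a kinase gene downstream of ERK (1.71 ± 0.134).

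The medians of the receptor and partner lists were also near the median gene, with single genes on both sides of it. Of 7 growth factor receptor genes 6 were measured, with a median of 14.2 FPKM and none in the top 10%. PDGFRB (30.3 ± 1.94) and FGFR1 (24.6 ± 2.33) were highest, followed by MET (17.8 ± 0.643), IGF1R (10.6 ± 0.0212), EGFR (9.87 ± 0.643) and PDGFRA (8.72 ± 0.686). FGFR2 had no value. Among the 11 partners and substrates, whose median was 13.9 FPKM, CAV1, the caveolin gene, stood apart at 146 ± 4.58. GRB2, the adaptor that Sprouty proteins bind, had 13.3 ± 1.29, and SPRY2 exceeded it 6.72-fold. The ubiquitin ligase gene CBL had 8.995 ± 0.389.

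Other genes known to respond to ERK had a median of 23.6 FPKM, with 12 of 12 measured and 5 in the top 10%. The highest were IER3 (258 ± 15.5), a stress and survival gene, PHLDA1 (127 ± 6.63), the AP-1 subunit gene FOSL1 (115 ± 5.13) and the cyclin gene CCND1 (86.2 ± 2.70). The lowest was LRIG1, a receptor inhibitor gene, at 1.87 ± 0.0424. DUSP1 was higher than any gene of this list in both libraries. These lists were chosen with earlier results of these data known, and the gene length behind the FPKM was not available. Differences between list medians are therefore a description.

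**Figure D3:**
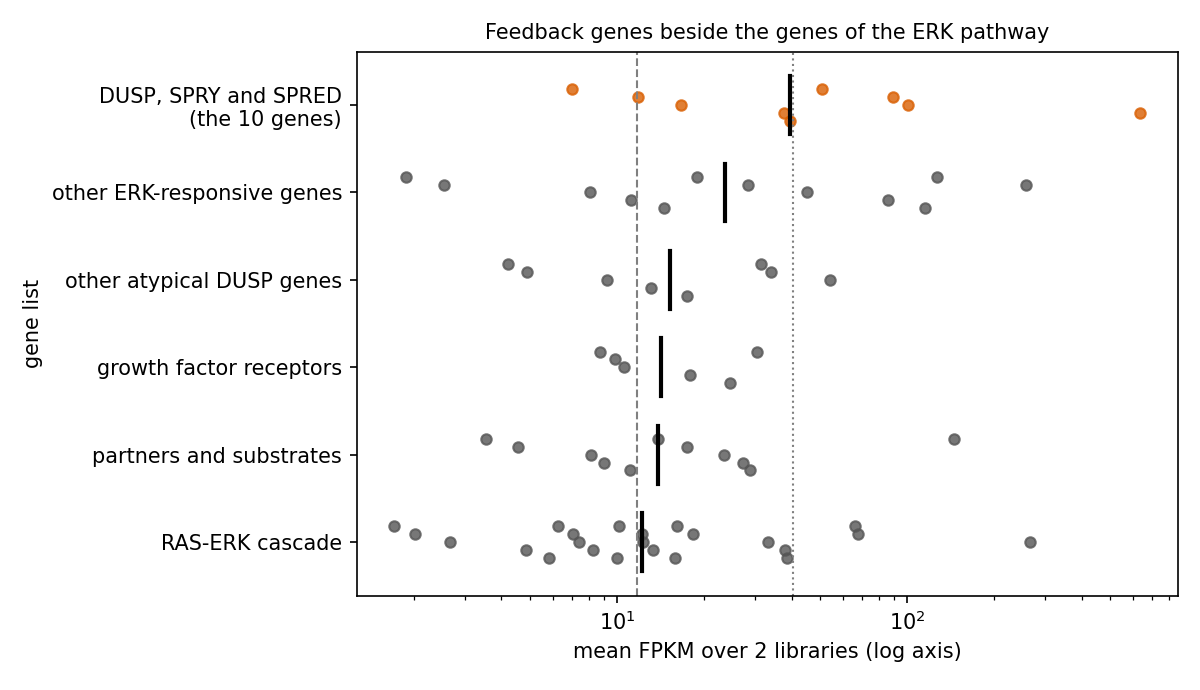
Mean FPKM over the 2 libraries (log axis) of each measured gene, a point, in 6 lists, with a bar at the list median, a dashed line at the median gene (11.7) and a dotted line at the boundary of the top 10% (40.3). The bar of the 10 named genes (9 measured) is at 39.4 and that of the RAS-ERK cascade at 12.2.

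Differences between the libraries were taken as log2 of library b over library a with the median of all genes at 0. None of the 9 differed by more than 1.5-fold, which is near the share of all genes that did, 2.16%. DUSP1 and DUSP6 were higher in library b, by 0.21 log2 units each, and DUSP5 by 0.11. SPRED1 and SPRED2 were lower in library b, by -0.12 and -0.17, and DUSP4, DUSP10, SPRY2 and SPRY4 differed by at most 0.04 in size. In all, 4 of 9 were higher in library b, against 50% of all genes, and the sign of SPRY2, 0.0087, turned negative with the values as deposited, after quantile normalization and after scaling to the nuclear genes. The other 8 kept their sign under these scalings.

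DUSP1 and DUSP6 moved between the libraries in the same proportion, so that their log2 ratio was 2.65 in both. A difference of their size was exceeded by 30.0% and 29.8% of all genes. High genes as a whole leaned to library b: of the 300 genes at 100 FPKM or more, 230 were higher there, with a median difference of 0.08. After quantile normalization the DUSP1 difference was 0.07 and that of DUSP6 0.18. Of the other ERK-responsive genes 9 of 12 were higher in library b, with a median of 0.08. One of them, ETV5, changed sign when scaled to the nuclear genes. What part the lean of high genes to library b had in these differences was not tested.

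**Figure D4:**
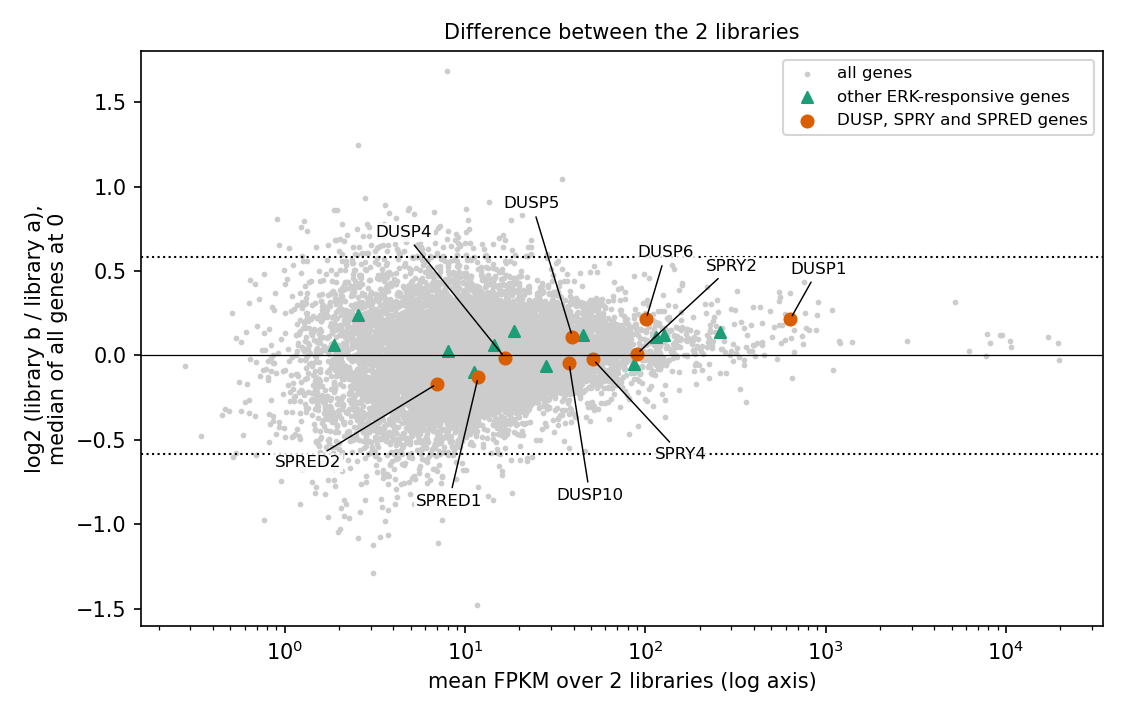
Log2 of library b over library a, with the median of all genes at 0, against mean FPKM (log axis), for all genes (grey), the other ERK-responsive genes (triangles) and the 9 measured genes (labelled circles); dotted lines mark 1.5-fold. All 9 lie between the dotted lines, with DUSP1 and DUSP6 at 0.21 and SPRED2 at -0.17.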

How the data were processed

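Nascent RNA was measured by GRO-seq in 2 replicate libraries of untreated BJ cells. The authors deposited 1 table of FPKM values for 12353 Ensembl gene identifiers, and the submitters' processing notes name Bowtie2, HTSeq and hg19. The sources used here do not give the length and read total behind the FPKM, the handling of multiply mapped reads or the use of strand. No deposited value was 0, and the lowest were 0.29 and 0.27. The column names end in letters, which no label links to replicate 1 or 2, so they are called library a and b. Depth is unknown: no common ratio between the columns stood out that would reveal whole reads (at most 11 of 3328 genes over FPKM 20 shared a narrow bin).

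Identifiers were matched to current symbols (12202 of 12353). The other 151 were kept among all genes without a name. Log2 values are log2(FPKM + 0.1), which slightly understates differences of low genes. Differences between libraries were centred on the median gene. Overlapping genes and start regions came from RefSeq (GRCh38.p14), by symbol. No length or position from it was joined to the values, which were made on another build. The rank and fold rules were tried on simulated libraries built from the real gene means and spread. This checks the rules, not the measured levels.

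The genes and lists were chosen with earlier results of these data known. Named genes were the 10 members, their relatives, all measured receptors and partners as needed, and the highest 3 or 4 and the lowest of longer lists. One gene that this rule names is not reported here. Alternatives were other pseudocounts, a minimum level, 3 scalings, each library alone and other class definitions. Python 3.11.15, pandas 2.3.3, numpy 2.4.6 and matplotlib 3.10.9 were used.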

Additional observations from a re-analysis of the deposited data

How the results depend on the processing

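The medians, counts and class differences kept their direction under every alternative run. With class means, however, the nuclear minus cytoplasmic difference was within the spread between the libraries (SD 0.121). Each library alone gave a median level of the 9 genes of 5.27 to 5.35 log2 units, 7 to 8 genes above the median gene, 4 to 5 in the top 10%, a nuclear minus cytoplasmic difference of -0.90 to -0.71 and a Sprouty minus SPRED difference of 2.45 to 2.57. Beyond the spread between libraries, the nuclear minus cytoplasmic difference moved to -1.42 without DUSP1, -1.35 with the listed members only and -0.12 with class means, and the Sprouty minus SPRED difference to 2.42 with a pseudocount of 1 and 2.67 with class means. Of 72 single-gene values under alternatives, 5 moved by more than 1 SD, the largest shift being 0.17 log2 units, with a pseudocount of 1. Levels between genes depend on a gene length that the sources used here do not give, and no alternative length was tried. No paired analysis was possible because there was 1 group.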
